A study of Mus musculus with 44 samples.

Results

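The 10 genes described here are used as markers of the interneurons of the striatum: Chat, Slc5a7, Slc18a3, Lhx6, Pvalb, Sst, Npy, Nos1, Th and Vip. They were taken by symbol from the 2 count tables of the series, where all 10 were found among 55487 gene identifiers. All 10 were among the 18579 genes tested in bulk tissue and among the 43902 tested in sorted nuclei. RNA was measured in the mouse nucleus accumbens, the ventral part of the striatum, after infusion of a viral vector that carried retinoid X receptor alpha (RXRa), a ligand-regulated transcription factor, or a fluorescent protein alone. Bulk tissue of males received the herpes simplex vectors HSV-GFP (4 libraries) or HSV-RXRa-GFP (4 libraries). Nuclei sorted as D1 or D2, the striatal projection neurons named for the dopamine receptor genes Drd1 and Drd2, came from animals of both sexes with the Cre-dependent adeno-associated vectors AAV9-CAG-DIO-EGFP (10 D1 and 9 D2 libraries) or AAV9-CAG-DIO-EGFP-P2A-RXRa (8 D1 and 8 D2 libraries), 4 or 5 in each group of population, sex and vector. The labels give no Cre line, age, strain, time after infusion or pooling of animals. They do not say whether libraries came from separate animals either, so the p-values measure the spread between these samples, which may in part be technical.

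Interneurons are a small minority of striatal cells and stay within the striatum, whereas projection neurons send axons out of it. Cholinergic interneurons make acetylcholine with choline acetyltransferase (Chat), take choline up with Slc5a7 and load the transmitter into vesicles with Slc18a3. GABAergic interneurons derived from the medial ganglionic eminence depend on the transcription factor Lhx6. A fast-spiking class contains the calcium-binding protein parvalbumin (Pvalb), and another class combines the peptides somatostatin (Sst) and neuropeptide Y (Npy) with neuronal nitric oxide synthase (Nos1). Tyrosine hydroxylase (Th), the rate-limiting enzyme of catecholamine synthesis, marks a further set of striatal GABAergic interneurons and, in axons that reach the striatum, midbrain dopamine neurons. Vip, vasoactive intestinal peptide, is far better known as a marker of cortical interneurons. Both vectors of the sorted series act only in cells with Cre. Striatal cholinergic interneurons also express Drd2, so with no Cre line given their genes need not lie outside the D2 sort.

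Bases upstream of the RefSeq transcription start are shown for 5 of the genes, on assembly GRCm38.p6 and written 5′ to 3′ on the gene's strand, which is the minus strand for all 5. Chat (chr14:32465910-32466159), Slc18a3 (chr14:32464851-32465100) and Slc5a7 (chr17:54299035-54299284) are shown because their levels moved together across the bulk libraries. Sst (chr16:23890845-23891094) and Th (chr7:142899996-142900245) are shown because only their windows, among those of the 10 genes, held the palindrome TGACGTCA, the cAMP response element, which is in capitals.
Chat: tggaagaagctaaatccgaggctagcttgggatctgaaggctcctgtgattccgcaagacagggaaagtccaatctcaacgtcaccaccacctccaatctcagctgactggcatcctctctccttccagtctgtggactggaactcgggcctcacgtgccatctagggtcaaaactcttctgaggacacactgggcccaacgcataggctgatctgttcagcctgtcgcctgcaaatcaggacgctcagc
Slc18a3: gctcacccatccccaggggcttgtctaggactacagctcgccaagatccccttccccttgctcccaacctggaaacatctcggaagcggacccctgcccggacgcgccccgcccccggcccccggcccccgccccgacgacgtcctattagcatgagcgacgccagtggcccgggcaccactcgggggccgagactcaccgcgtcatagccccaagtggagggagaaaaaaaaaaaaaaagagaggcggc
Slc5a7: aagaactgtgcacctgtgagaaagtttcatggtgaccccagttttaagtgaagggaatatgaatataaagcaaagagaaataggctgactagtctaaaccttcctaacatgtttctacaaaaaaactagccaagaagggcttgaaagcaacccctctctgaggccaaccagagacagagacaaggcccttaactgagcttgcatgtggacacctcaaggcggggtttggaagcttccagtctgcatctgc
Sst: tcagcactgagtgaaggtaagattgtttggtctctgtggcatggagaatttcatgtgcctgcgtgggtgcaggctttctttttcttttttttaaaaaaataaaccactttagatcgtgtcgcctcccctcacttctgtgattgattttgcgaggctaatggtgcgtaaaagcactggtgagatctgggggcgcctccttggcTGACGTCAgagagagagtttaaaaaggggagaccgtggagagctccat
Th: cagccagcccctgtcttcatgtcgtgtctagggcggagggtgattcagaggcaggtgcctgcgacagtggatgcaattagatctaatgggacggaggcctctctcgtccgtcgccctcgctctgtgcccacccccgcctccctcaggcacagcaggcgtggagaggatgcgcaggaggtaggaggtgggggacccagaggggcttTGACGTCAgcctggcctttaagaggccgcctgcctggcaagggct

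All 10 genes matched the RefSeq promoter table, with 13 windows of 300 bases between them (250 before the start and 50 after it). TGACGTCA was found in 2 of the 13, against 1.79% of all 32851 windows, and began 48 bases before the start of Sst and 45 before that of Th. The hexamer AGGTCA, the half-site bound by RXR and its partner receptors, was searched on both strands. It occurred in none of the 13 windows and in 16.3% of all windows. These matches describe letters in a window and not sites of binding.

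Chat and Slc18a3 share a place in the genome. On GENCODE M21 (GRCm38) Slc18a3 (ENSMUSG00000100241, chr14:32462438-32464850) is a gene of 1 exon, and it lies whole inside Chat (ENSMUSG00000021919, chr14:32408203-32465989) on the same strand. No exon base is shared between them. Pvalb (chr15:78191114-78206400), Sst (chr16:23889573-23890958), Npy (chr6:49822710-49829507), Slc5a7 (chr17:54273590-54299034), Th (chr7:142892752-142931128) and Vip (chr10:5639218-5647617) overlap no other annotated gene. Nos1 (chr5:117781032-117958840) shares 268 exon bases with overlapping transcripts and Lhx6 (chr2:36081953-36105408) shares 104, and Chat is crossed by an antisense transcript, Gm2990. Since the use of strand in counting is not given in the sources used here, reads of such overlapping transcripts could not be told apart from those of Chat, Nos1 and Lhx6.

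In bulk tissue the somatostatin and neuropeptide Y genes were by far the best represented of the 10. Per kb of exon, with library sizes scaled by the trimmed mean of M values (TMM), the Sst level was 215.8 ± 49.4 CPM (counts per 1000000) per kb (SD, n = 8, range 148.4 to 310.5). The Npy level was 86.08 ± 15.15 CPM per kb (range 64.84 to 114.4). The levels of the next 7 genes lay close together: Nos1 8.235, Pvalb 7.972, Slc5a7 6.307, Lhx6 5.607, Slc18a3 5.601, Th 4.811 and Chat 4.769 CPM per kb. Vip was lowest at 1.115 CPM per kb. Neighbours in this order had separate ranges only between Sst and Npy, between Npy and Nos1, and between Chat and Vip. The levels per kb of the 3 cholinergic genes thus lay within the ranges of their neighbours, Lhx6 and Th among them.

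The vector changed none of the 10 genes in bulk tissue at an adjusted p under 0.05 by edgeR's quasi-likelihood test. Of all genes tested there, 3.7% were called. At an unadjusted p under 0.05 the count among the 10 was also 0, against 3990 of the 18579 genes tested. DESeq2 called 0 of the 10 as well. In none of the 10 did the RXRa libraries lie all above or all below the GFP libraries, against 13.2% of all genes tested. The median log2 fold change of the 10 was −0.09, beside −0.02 over all genes, with 3 positive and 7 negative values. In bulk tissue fewer cells of a type and less RNA per cell cannot be told apart.

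**Figure D1:**
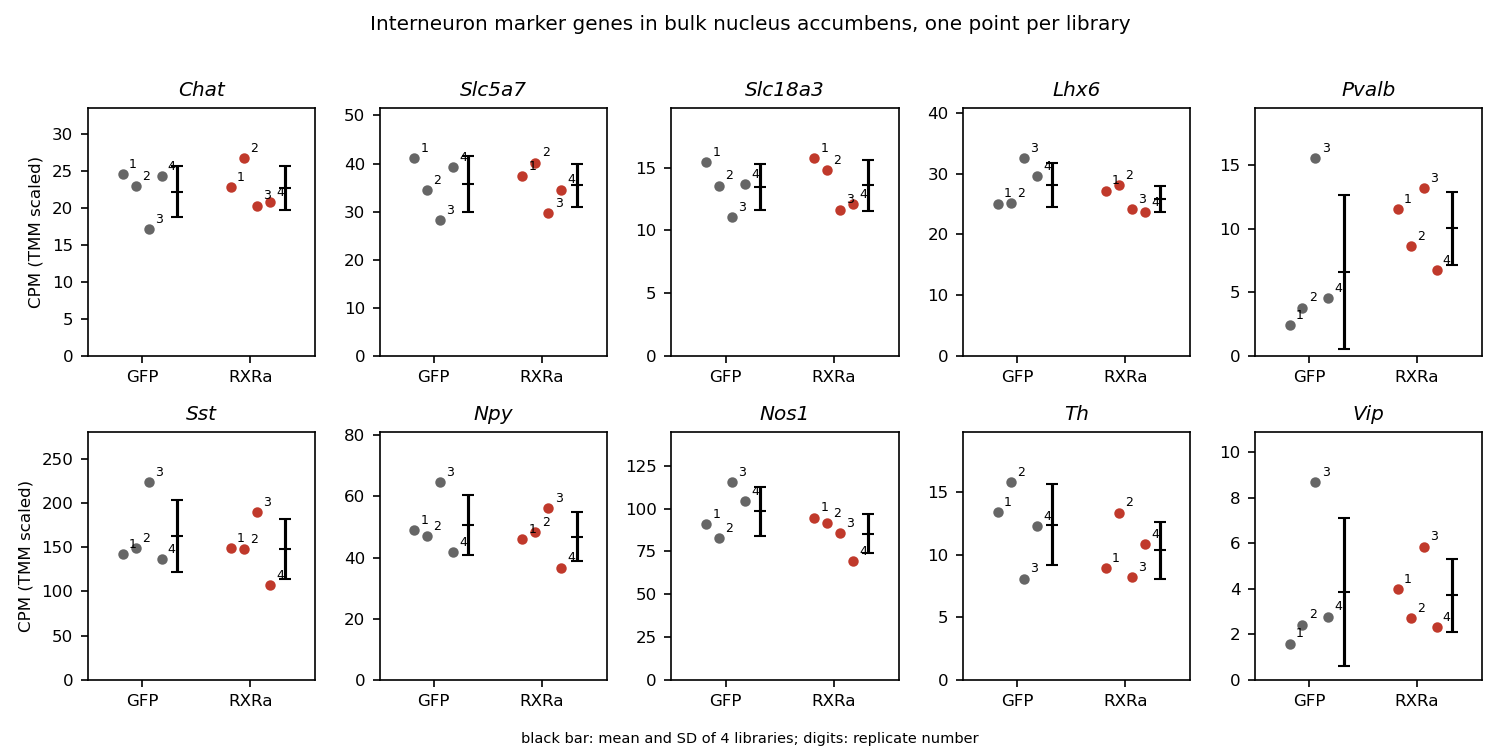
Level (CPM, TMM scaled) of each of the 10 genes in the 8 bulk libraries, with GFP in gray, RXRa in red, digits for the replicate number and a black bar for the mean and SD of 4 libraries. GFP library 3 is the highest of its group for Pvalb, Sst and Vip and the lowest for Chat, Slc5a7 and Slc18a3, and the vector groups overlap in every panel.

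The 3 genes of the cholinergic neuron were the steadiest between vectors. Chat was at 24.55, 22.88, 17.10 and 24.28 CPM in GFP libraries 1 to 4 and at 22.83, 26.73, 20.29 and 20.78 CPM in RXRa libraries 1 to 4. Slc5a7, the choline transporter, was at 41.15, 34.39, 28.17 and 39.25 CPM with GFP and at 37.43, 40.18, 29.64 and 34.59 CPM with RXRa. Slc18a3, the vesicular acetylcholine transporter, was at 15.46, 13.57, 11.03 and 13.70 CPM with GFP and at 15.77, 14.83, 11.66 and 12.11 CPM with RXRa. In each of the 3 genes GFP library 3 was the lowest of its group, and the values of the vectors interleaved. The fold changes on the log2 scale were 0.03 (95% interval −0.26 to 0.33) for Chat, −0.01 (−0.30 to 0.28) for Slc5a7 and 0.02 (−0.28 to 0.32) for Slc18a3, with adjusted p of 0.926, 0.978 and 0.959. All 3 intervals lay within 0.33 of 0.

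The same 3 genes varied together from library to library. Spearman's correlation over the 8 bulk libraries was 0.905 between Chat and Slc5a7, 0.833 between Slc5a7 and Slc18a3 and 0.738 between Chat and Slc18a3, as a description with no test, since all genes of a library share its dissection, depth and scaling. Among 16009 genes with a mean of at least 1 CPM, those most like Chat were Pold2 (correlation 1.0) and Lhx8 (0.976), the latter a transcription factor of developing cholinergic neurons. Those most like Slc18a3 were Supt7l (0.976) and Ecel1 (0.952). For Slc5a7 they were Ddx19a (0.976) and Gm11353 (0.952). Of 11 further markers of cholinergic interneurons, among them Isl1, Lhx8, Slc17a8 and Ache, 0 of 11 tested were called in bulk, 0 had an unadjusted p under 0.05, and their median log2 fold change was 0.03. Their summed level was 282.8 to 337.5 CPM with GFP and 288.1 to 356.9 CPM with RXRa.

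Parvalbumin had the largest difference between the vectors and the widest spread among the GFP libraries. Pvalb was at 2.41, 3.80, 15.54 and 4.54 CPM in GFP libraries 1 to 4 and at 11.51, 8.64, 13.19 and 6.76 CPM in RXRa libraries 1 to 4. GFP library 3 was above all the others, and the other 3 GFP libraries were below all 4 RXRa libraries. The log2 fold change over all libraries was 0.61 (95% interval −0.55 to 1.77, adjusted p = 0.537). Without GFP library 3, the library with the highest Pvalb level, it was 1.48, with an adjusted p of 0.0343 by edgeR's quasi-likelihood test. Pvalb was then the only 1 of the 10 called. Over all genes that fit called 402, against 687 in the fit of all libraries.

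The Pvalb values moved with the summed levels of several marker lists, that of glutamatergic neurons among them. The summed level of 5 markers of glutamatergic neurons, which have their cell bodies in cortex and other regions around the accumbens (Slc17a7, Slc17a6, Tbr1, Neurod6 and Neurod2), was 7.15, 100.2, 722 and 84.99 CPM in GFP libraries 1 to 4 and 461, 93.98, 544 and 71.1 CPM in RXRa libraries 1 to 4. The median log2 fold change of the 5 was 0.35, and 0 of 5 were called. No marker of the 5 was at 0 in a library. Spearman's correlation of this sum over the 8 libraries was 0.929 with Sst, 0.905 with Vip, 0.833 with Pvalb, 0.548 with Npy, 0.381 with Lhx6 and with Nos1, −0.476 with Slc18a3, −0.667 with Chat and with Th, and −0.786 with Slc5a7. For Pvalb the correlation was also 0.929 with the summed catecholamine list and 0.833 with the summed GABAergic list, both described below. With the shared projection neuron list it was 0.119 and with the cholinergic list −0.405. In the 4 libraries where the glutamatergic sum lay between 71.1 and 100.2 CPM, Pvalb was at 3.80 and 4.54 CPM with GFP and at 8.64 and 6.76 CPM with RXRa. The part of any of these lists in the Pvalb difference was not tested.

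**Figure D2:**
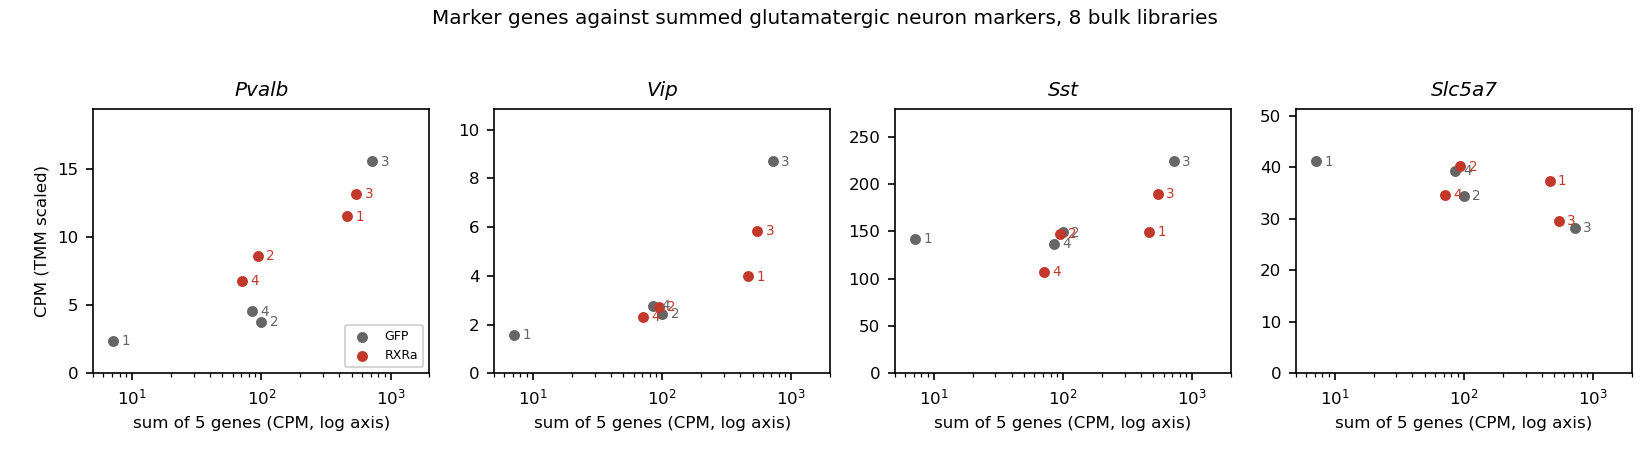
Level (CPM) of Pvalb, Vip, Sst and Slc5a7 against the summed level of 5 glutamatergic neuron markers (CPM, log axis) in the 8 bulk libraries, GFP in gray and RXRa in red, with digits for the replicate number. The sum runs from 7.15 CPM in GFP library 1 to 722 CPM in GFP library 3, and Pvalb, Vip and Sst are highest in GFP library 3, where Slc5a7 is lowest.

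Vip, the least abundant of the 10, followed the same libraries. It was at 1.59, 2.42, 8.70 and 2.78 CPM with GFP and at 3.98, 2.72, 5.86 and 2.31 CPM with RXRa, so that GFP library 3 and RXRa library 3 were high and the groups overlapped. The log2 fold change was −0.07 (95% interval −1.22 to 1.09), the widest of the 10 together with that of Pvalb. The 2 genes most like Vip across the bulk libraries were Nxph2 and Lypd6b, both with a correlation of 1.0.

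The genes of the Sst, Npy and Nos1 class had small differences with every point estimate below 0. Sst was at 142.2, 148.8, 223.8 and 136.4 CPM with GFP and at 149.3, 147.6, 189.7 and 107.0 CPM with RXRa. Library 3 was the highest of each group, and the log2 fold change was −0.13 (95% interval −0.57 to 0.31). Npy was at 48.89, 46.91, 64.73 and 41.91 CPM with GFP and at 46.14, 48.23, 56.25 and 36.70 CPM with RXRa, with a log2 fold change of −0.11 (−0.46 to 0.23). Nos1 was at 91.03, 82.64, 115.5 and 104.3 CPM with GFP and at 94.69, 91.64, 85.66 and 69.19 CPM with RXRa. Its log2 fold change was −0.21 (−0.48 to 0.07), and its adjusted p of 0.369 was the lowest of the 10 genes in bulk. Neither Sst nor Npy kept its sign when GFP library 3 was left out, at 0.06 and 0.03.

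Lhx6, the transcription factor of these GABAergic lineages, was at 25.08, 25.16, 32.57 and 29.60 CPM with GFP and at 27.21, 28.07, 24.20 and 23.66 CPM with RXRa. The log2 fold change was −0.12 (95% interval −0.35 to 0.11). Lhx6 varied with Nos1 (correlation 0.905, n = 8) and as closely with the summed level of 7 markers shared by the projection neurons (0.905). Its correlation was 0.333 with Sst and 0.238 with Npy. Of 20 further markers of GABAergic interneurons, among them Nkx2-1, Sox6, Kcnc1, Calb2 and Cck, 0 of 20 were called in bulk, 1 had an unadjusted p under 0.05 and their median log2 fold change was 0.04. Their summed level was 501.6 to 763.2 CPM with GFP, highest in GFP library 3, and 488.7 to 645.1 CPM with RXRa.

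Tyrosine hydroxylase ran against parvalbumin. Th was at 13.41, 15.82, 8.10 and 12.27 CPM with GFP and at 8.94, 13.38, 8.21 and 10.86 CPM with RXRa, with library 3 the lowest of each group. The log2 fold change was −0.26 (95% interval −0.74 to 0.22, adjusted p = 0.526). Spearman's correlation between Th and Pvalb over the 8 libraries was −0.905. Among 8 other genes of catecholamine synthesis and dopamine neurons, 5 passed the filter on low counts. Of these 5 only Gch1, which makes the cofactor of tyrosine hydroxylase, was called, with a log2 fold change of 0.86 (SE 0.18, adjusted p = 0.0352). The median of the 5 lay the other way, at −0.49, beside −0.02 over all genes tested. The decarboxylase gene Ddc was at −0.49 and Slc6a3 at −0.63, both with an unadjusted p under 0.05 and neither called (adjusted p = 0.0943 and 0.185). The dopamine transporter gene Slc6a3, which defines midbrain dopamine neurons, averaged 0.459 CPM, and Dbh, Pitx3 and En1 averaged at most 0.108 CPM.

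In the sorted nuclei the receptor genes differed between the populations in the labelled direction. Drd1 averaged 54.1 CPM in D1 (30.7 to 83.8 over the libraries) and 17.3 in D2 (6.495 to 38.6), so its ranges overlapped. Drd2 averaged 67.2 CPM in D1 and 889 in D2, and Adora2a 18.2 and 73.8, both with no overlap between libraries. Tac1, another D1 gene, was less distinct, at 40.8 ± 14.2 CPM (SD, n = 18) in D1 and 27.9 ± 13.7 CPM (SD, n = 17) in D2. Library totals were 12211655 to 27757463 counts in the sorted table and 21567565 to 29167142 in bulk.

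Counts of silent genes in the sorted table followed the length of the whole gene. The fit took 2758 autosomal protein-coding genes with no count in any bulk library and some count in the sorted libraries. Over these the sorted level scaled with gene-body length to the power 0.98 and with exon length to the power 0.01. The median density of 1576 such genes of at least 5 kb, called the silent-gene density below, was 0.380 to 0.565 CPM per kb of gene body across the 35 libraries. A level at this density is what a gene with no spliced transcript in bulk tissue shows in these libraries. Each interneuron gene was therefore set against it.

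Only Sst and Npy stood above the range of silent genes in the sorted nuclei. The gene-body density averaged 9.27 times the silent-gene density for Sst and 1.73 times for Npy, where the 5th to 95th percentiles of silent genes were 0.356 and 1.56. Chat was at 1.30 times, Nos1 at 1.20, Slc5a7 at 1.18, Lhx6 at 1.15, Th at 1.11, Pvalb at 1.08, Vip at 0.931 and Slc18a3 at 0.395. So 8 of the 10 genes lay within the silent range, and their sorted counts, though as high as 2154 on average for the 178 kb gene Nos1, could not be told apart from this background. The gene bodies are those of GENCODE. From their 5′ ends the RefSeq start lies at −31133 chromosome bases for Th (minus strand) and at 85807 for Nos1 (plus strand), inside both bodies. Densities over the RefSeq span of these genes were not computed. Sst is shorter than 5 kb. Against 1196 silent genes under 5 kb, a comparison added after the data were seen, it lay above 1185, and Slc18a3 lay above 179.

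**Figure D3:**
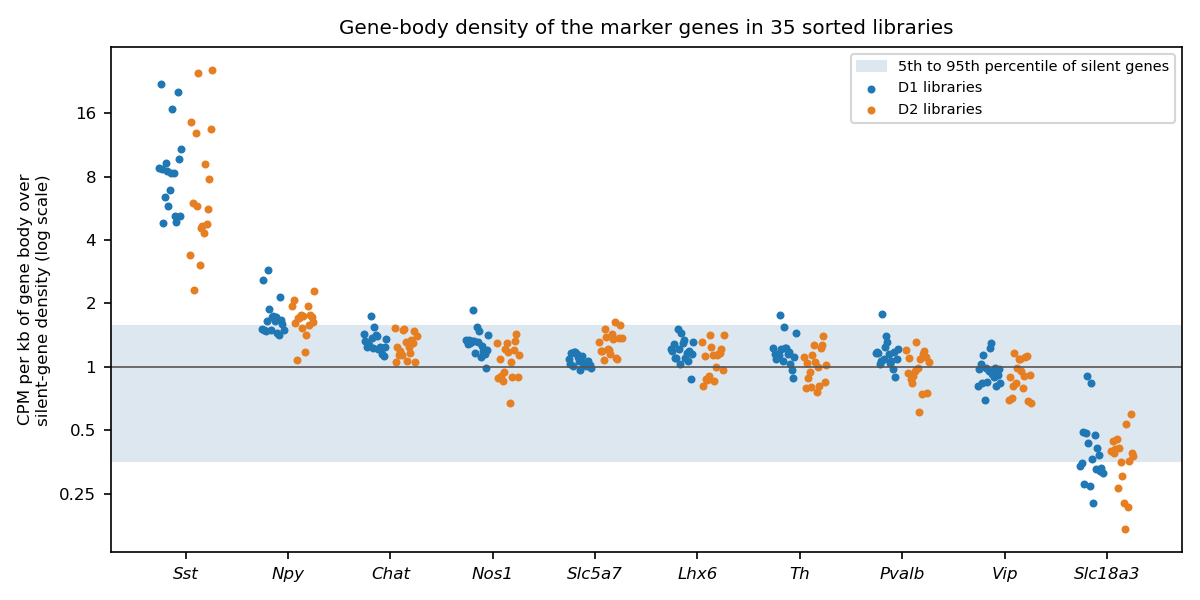
Gene-body density (CPM per kb) of each of the 10 genes divided by the silent-gene density of the same library (log axis), with 1 point for each of the 35 sorted libraries, D1 in blue and D2 in orange, and a band from the 5th to the 95th percentile of silent genes. Sst lies above the band in every library, Npy straddles its upper edge and the mean of each other gene lies inside it.

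Other interneuron markers were alike in this respect. Of the 11 further cholinergic markers 8 lay within the silent range and 3 above it (Isl1 at 1.69, Slc10a4 at 1.78 and Ache at 2.15 times the silent-gene density). Of the 20 further GABAergic markers 17 lay within it and 3 above it (Kcnc1 at 1.92, Cck at 1.72 and Trh at 1.63 times). Of the 8 catecholamine and dopamine neuron genes 7 lay within it, among them Slc6a3 at 1.07, Nr4a2 at 0.924 and En1 at 0.698 times, and 1 above it, Slc18a2 at 1.603 times. All 7 markers shared by the projection neurons lay above it, with a median of 4.36 times. Ache and Kcnc1 are used by many kinds of neuron, and Isl1 is also a gene of D1 projection neurons.

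The sorted counts of Slc18a3 are uncertain for another reason. The gene had 3 to 18 counts per sorted library, against 253 to 437 in bulk. On the log2 scale its mean level was 4.86 lower in the sorted table than in bulk (−4.86), whereas its host Chat was 0.72 higher. Among the genes with no overlap, Sst was at −4.66, Npy at −3.08, Slc5a7 at −1.26, Pvalb at −0.04, Vip at 0.03 and Th at 0.88. Gene bodies also differ in length, at 2.413 kb for Slc18a3, 1.386 kb for Sst and 57.787 kb for Chat. Among 88 protein-coding genes that lie inside a gene of the same strand with exons apart, the median was −3.32, beside −1.47 for 4779 genes with no overlap. It was −2.96 for 233 genes that lie inside a gene of the other strand only, so a low median was not particular to the same strand. For 41 genes inside a gene of the same strand with exons shared it was −1.96. For 5745 genes with a partial overlap or with other genes inside them it was −0.61. These sets held only genes above a floor on the bulk level and were not matched for gene length. The part of length in the Slc18a3 value was not tested. Whether reads that fall in both genes were left uncounted is not given in the sources used here.

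RXRa changed none of the 10 genes in either sorted population at an adjusted p under 0.05. Among all genes 0% were called in D1 and 22.1% in D2. At an unadjusted p under 0.05 the count was 1 in D1 (Vip) and 1 in D2 (Sst), against 3518 and 16290 of the 43902 genes tested. DESeq2 called 0 of the 10 in each. For none of the 10 did the vector groups lie apart in both sexes, against 0.041% of all genes in D1 and 0.18% in D2. Values below 0 made up 8 of 10 in each population, with a median log2 fold change of −0.09 in both, beside −0.01 over all genes in D1 and −0.04 in D2.

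**Figure D4:**
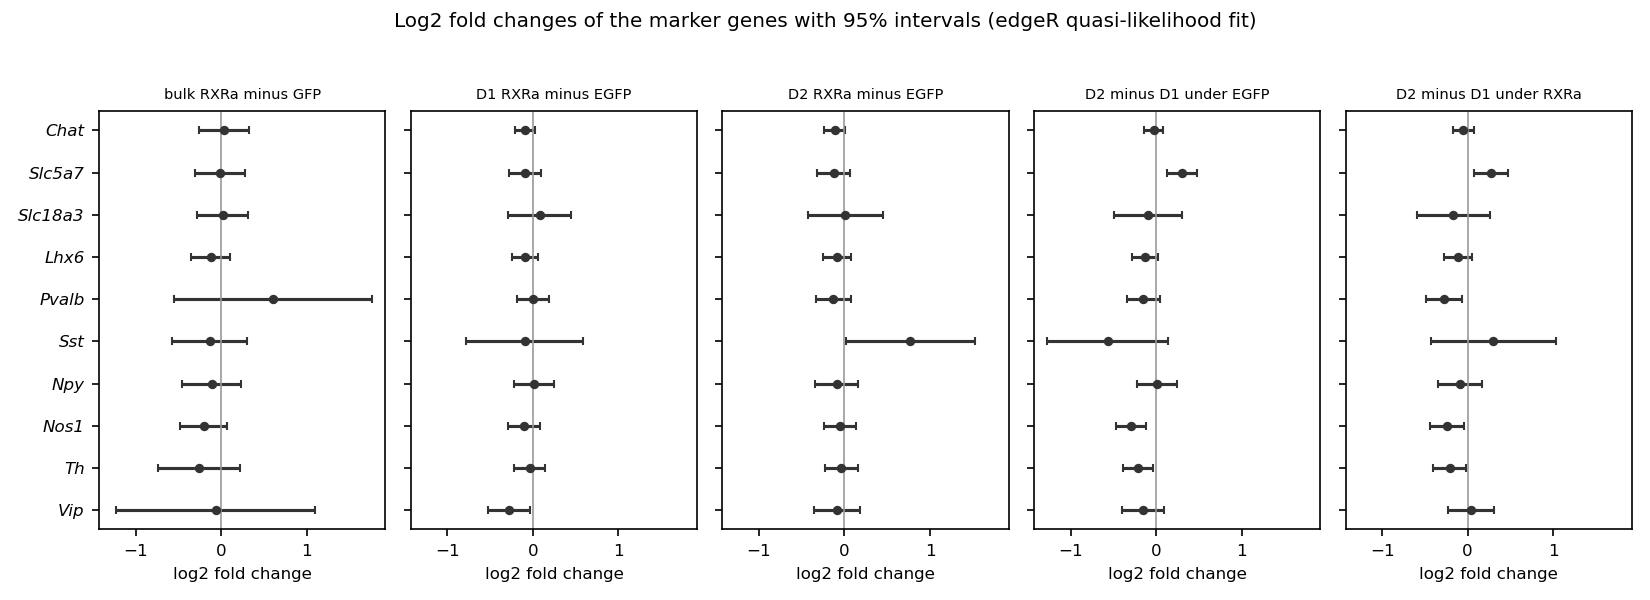
Log2 fold change with its 95% interval for each of the 10 genes in 5 comparisons, from edgeR quasi-likelihood fits. Most sorted intervals are narrower than those in bulk, the intervals of Sst and Slc18a3 are the widest in the sorted nuclei, and the interval of Slc5a7 lies above 0 and that of Nos1 below 0 in both comparisons of D2 with D1.

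Somatostatin was the most variable of the 10 between sorted libraries and had the largest fold change with RXRa in D2. Among the D2 EGFP libraries Sst was at 2.39, 10.8, 4.37 and 1.82 CPM in females (numbered 1, 3, 4 and 5) and at 3.37, 3.57, 3.15, 7.05 and 3.19 CPM in males. Among the D2 RXRa libraries it was at 8.78, 4.33, 13.3 and 1.86 CPM in females (2, 3, 4 and 5) and at 4.03, 4.76, 8.97 and 14.2 CPM in males (1, 2, 3 and 5). The groups overlapped in the females over nearly their whole range, while in males only the EGFP library at 7.05 CPM reached into the RXRa values. The log2 fold change was 0.77 (95% interval 0.02 to 1.52, unadjusted p = 0.0443, adjusted p = 0.124). Without D2 female EGFP library 3, at 10.8 CPM, it was 1.13 with an adjusted p of 0.027 by edgeR's test. Over all genes that fit called 10311, against 9683 in the fit of all libraries. With the silent-gene density as a covariate the log2 fold change of Sst was 0.17, the lowest value of any alternative fit.

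In D1 the Sst values had no such difference. The EGFP libraries were at 5.79, 14.96, 6.29, 3.603 and 4.44 CPM in females and at 5.91, 11.2, 5.90, 3.90 and 3.62 CPM in males. The RXRa libraries were at 4.91, 5.78, 3.99 and 4.00 CPM in females and at 13.1, 7.25, 3.89 and 6.77 CPM in males, and all groups overlapped. The log2 fold change was −0.10 (95% interval −0.78 to 0.59). The difference between the vector effects in D2 and D1 was 0.87 (95% interval −0.15 to 1.88, unadjusted p = 0.0919, adjusted p = 0.602), so the effects were not shown to differ. Over all 35 sorted libraries Sst ranged from 1.82 to 14.96 CPM, with a coefficient of variation of 58.5%, where the other 9 genes had 8.32% to 31.6%. The genes most like it there were Gpr22 (correlation 0.807, n = 35) and Gm11146 (0.797).

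Npy, the peptide made by the same interneurons, was steadier. It averaged 5.77 CPM in D1 EGFP, 5.86 in D1 RXRa, 5.83 in D2 EGFP and 5.51 in D2 RXRa, with log2 fold changes of 0.02 (95% interval −0.22 to 0.25) in D1 and −0.09 (−0.34 to 0.16) in D2. Spearman's correlation between Npy and Sst was 0.385 over the 35 sorted libraries, and 0.762 over the 8 bulk libraries. D1 female EGFP library 2 was the highest of its group for both, at 14.96 CPM for Sst and 8.52 CPM for Npy.

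None of the remaining genes was called for the vector in D1 or D2. Vip had a log2 fold change of −0.28 in D1 (95% interval −0.53 to −0.03, unadjusted p = 0.027, adjusted p = 0.588) and −0.09 in D2 (−0.36 to 0.19). Chat was at −0.09 (−0.21 to 0.03) in D1 and −0.11 (−0.24 to 0.01) in D2. Slc5a7 was at −0.09 in D1 and −0.12 in D2, Lhx6 at −0.09 and −0.08, Pvalb at −0.0008 and −0.13, Nos1 at −0.10 and −0.05, and Th at −0.04 and −0.04. Slc18a3, with its 3 to 18 counts, had wider intervals, at 0.08 (−0.29 to 0.45) and 0.0073 (−0.43 to 0.45).

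Other quantities differed between the vectors in the sorted libraries. The silent-gene density was 0.510 ± 0.024 CPM per kb (SD, n = 10) in D1 EGFP, 0.471 ± 0.056 (n = 8) in D1 RXRa, 0.530 ± 0.025 (n = 9) in D2 EGFP and 0.460 ± 0.054 (n = 8) in D2 RXRa. All 7 markers shared by the projection neurons, such as Gad1, Gad2 and Foxp1, were called higher with RXRa in D2. Of all genes tested 22.1% were called there. The median log2 fold change of the 7 was 0.57. In D1 0 of the 7 were called, and their median was 0.35. With library totals in place of TMM the median log2 fold change of all genes in D2 moved from −0.04 to −0.20. Chat then had −0.27 with an adjusted p of 0.0322 by edgeR's test. Over all genes 11391 were called with library totals, against 9683 with TMM. Spearman's correlation with the silent-gene density over the 35 libraries was 0.592 for Slc5a7, 0.448 for Vip and −0.372 for Sst, and between −0.18 and 0.18 for the other 7. With the summed level of the 7 projection neuron markers it was −0.673 for Chat, −0.527 for Nos1, −0.463 for Lhx6, −0.407 for Vip, −0.333 for Pvalb, −0.332 for Th and 0.297 for Sst, and between −0.14 and 0.003 for the other 3. The silent-gene density and that sum themselves had a correlation of −0.602. The part of either in the vector differences was not tested.

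Of the wider cholinergic, GABAergic and catecholamine lists 7 genes were called with RXRa in D2, where 22.1% of all genes tested were called. The counts of the GABAergic list (4 of 20) and the catecholamine list (2 of 8) were near that share, and that of the cholinergic list (1 of 11) was below it. Of the 11 cholinergic markers 1 rose and 0 fell, Ache at 0.68 on the log2 scale (SE 0.14, adjusted p = 0.0111). Of the 20 GABAergic markers 1 rose, the potassium channel gene Kcnc1 at 0.41 (SE 0.10), and 3 fell, Satb1 at −0.20 (SE 0.05), Kit at −0.17 (SE 0.05) and Sox6 at −0.15 (SE 0.05). The 3 that fell lay within the silent range. Of the 8 catecholamine genes Slc18a2, the vesicular monoamine transporter, rose at 0.19 (SE 0.06) and Slc6a3, which lay within the silent range, fell at −0.19 (SE 0.06). The medians of the lists were −0.07, −0.09 and −0.11, beside −0.04 over all genes. In D1 none of these genes was called, with 1, 1 and 0 of the lists at an unadjusted p under 0.05. In D2 the fit with the silent-gene density as a covariate called 0 genes of any kind, as did the fit without D2 female RXRa library 4.

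The comparison of D2 with D1 nuclei called none of the 10 genes either, with EGFP or with RXRa. Of all genes 0.121% were called under EGFP and 8.36% under RXRa. At an unadjusted p under 0.05 there were 3 of the 10 under EGFP and 4 under RXRa, against 4620 and 11629 of the 43902 genes tested. DESeq2 called 0 and 1 of the 10. For none of the 10 did D1 and D2 lie apart in both sexes, against 0.2% and 0.207% of all genes. The median log2 fold change of the 10 was −0.14 under EGFP and −0.10 under RXRa, beside 0.01 and −0.02 over all genes.

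Slc5a7, whose mean density lay within the silent range, was higher in D2 libraries, but short of the threshold. Under EGFP it was at 13.1, 12.8, 15.4, 13.8 and 14.98 CPM in D1 females, at 12.7, 13.9, 13.5, 14.0 and 13.8 CPM in D1 males, at 17.0, 16.1, 15.9 and 15.5 CPM in D2 females and at 15.7, 20.0, 18.3, 22.8 and 13.5 CPM in D2 males. All D2 females lay above all D1 females, and in males 1 D2 library lay within the D1 values. The log2 difference was 0.30 (95% interval 0.12 to 0.48, unadjusted p = 0.00159, adjusted p = 0.229). Under RXRa, in other libraries, it was 0.28 (0.08 to 0.47, unadjusted p = 0.00764, adjusted p = 0.0653). Of 24 alternative settings 20 left this difference under RXRa uncalled and 4 called it. The 4 were RLE size factors (adjusted p = 0.0456), DESeq2 (0.0238), the silent-gene density as a covariate (0.014) and the fit without D2 male RXRa library 1 (0.0321). Chat was at −0.03 (−0.14 to 0.09) and −0.05 (−0.18 to 0.07).

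**Figure D5:**
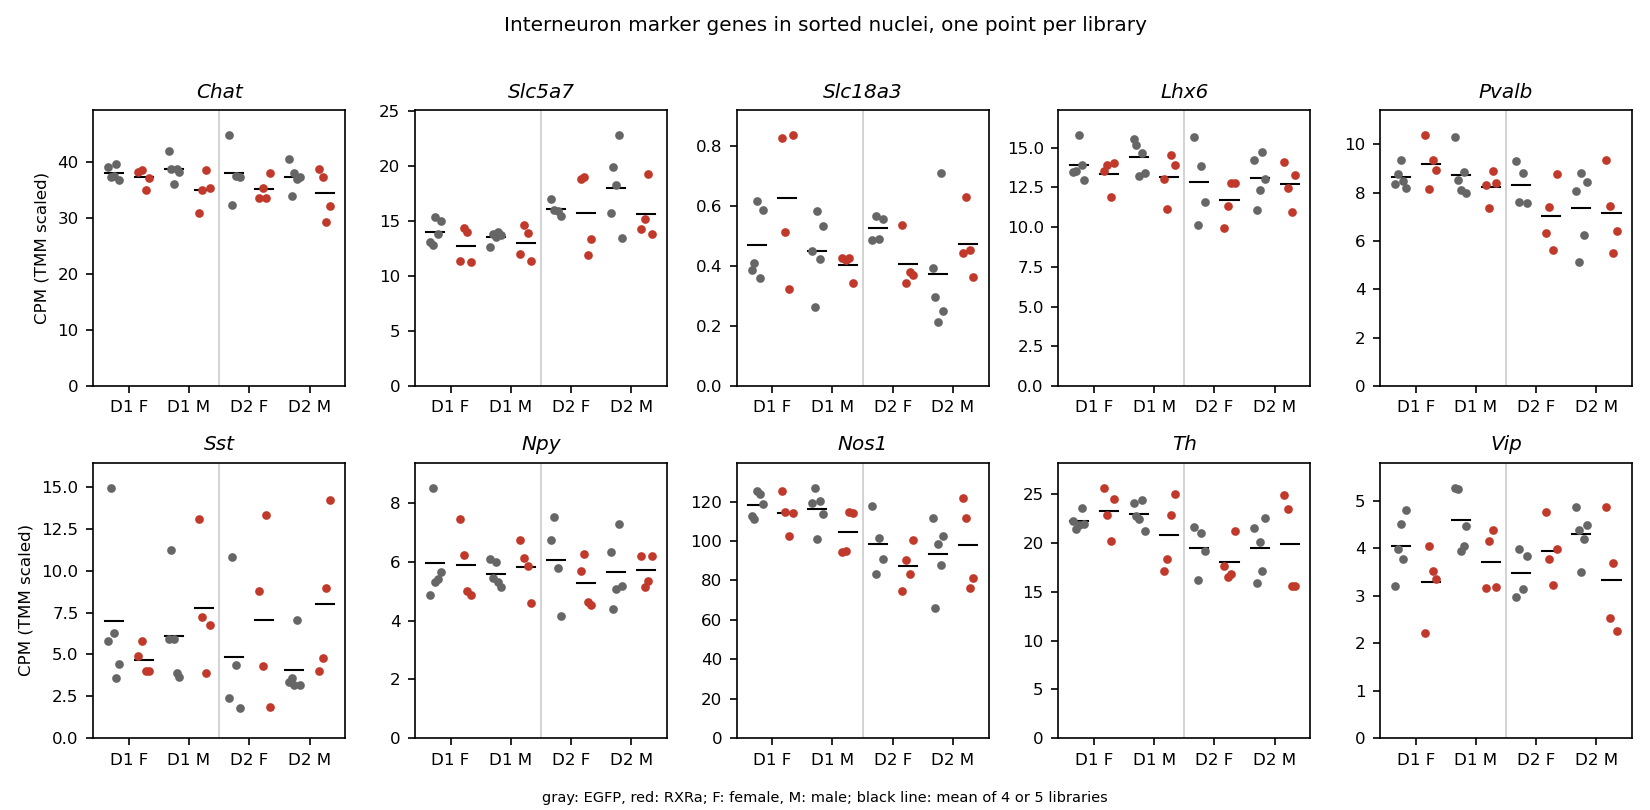
Level (CPM, TMM scaled) of each of the 10 genes in the 35 sorted libraries, by population (D1, D2) and sex (F, M), with EGFP in gray, RXRa in red and a black line at the mean of 4 or 5 libraries. Under EGFP the means of Slc5a7 are 13.8 CPM in D1 and 17.2 in D2 and those of Nos1 117 and 95.5, with overlapping points, while the Sst points spread from 1.82 to 14.96 CPM.

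Nos1, Th and Pvalb, whose mean densities lay within the silent range, had lower values in D2. Nos1 averaged 117 CPM in D1 EGFP, 109 in D1 RXRa, 95.5 in D2 EGFP and 92.5 in D2 RXRa. The log2 difference was −0.29 (95% interval −0.47 to −0.11, adjusted p = 0.244) under EGFP and −0.24 (−0.43 to −0.05, adjusted p = 0.0959) under RXRa. Th averaged 22.6, 22.1, 19.5 and 19.0 CPM in the same order, with differences of −0.21 (adjusted p = 0.385) and −0.21 (adjusted p = 0.149). Pvalb averaged 8.69, 8.72, 7.78 and 7.10 CPM, with differences of −0.15 (adjusted p = 0.581) and −0.28 (adjusted p = 0.0758). Without D2 male RXRa library 1 the RXRa differences of Slc5a7, Pvalb, Nos1 and Th were all called. Without D2 female RXRa library 5 those of Pvalb and Nos1 were. In the reported fit of this comparison 8.36% of all genes tested were called. The number of all genes called moved widely with 1 library left out, as given further below. These calls are therefore not read as a result about these genes.

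Nos1 and Th varied together across the 35 sorted libraries (correlation 0.863), and Nos1 also with Chat (0.761), Pvalb (0.755) and Lhx6 (0.744). The genes most like Nos1 there were Samd4b (0.965) and Dnah10 (0.963), and those most like Th were Sept9 (0.936) and Tunar (0.931). The trio that moved together in bulk did not do so here: the correlation was −0.141 between Chat and Slc5a7 and −0.008 between Chat and Slc18a3. These 35 points differ in population, sex, vector and depth, and are given as a description.

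Of the wider lists, Isl1, a LIM-homeodomain factor of cholinergic interneurons and of D1 projection neurons, was lower in D2 under EGFP at −0.51 (SE 0.09, adjusted p = 0.00473) and under RXRa at −0.85 (SE 0.10, adjusted p = 2.09e-06). It was the only 1 of 11 cholinergic and 20 GABAergic markers called under EGFP. Under RXRa Ecel1 was higher at 0.46 (SE 0.13, adjusted p = 0.0342). The GABAergic markers Maf at −0.24 and Calb2 at −0.27 and the dopamine neuron genes Nr4a2 at −0.27 and En1 at −0.46 were lower. Ecel1, at 0.939 times the silent-gene density, and all 4 of the lower genes lay within the silent range. With Isl1 these are 2 of 11, 2 of 20 and 2 of 8 genes of the lists, where 8.36% of all genes tested were called. The medians of the cholinergic, GABAergic and catecholamine lists were −0.01, −0.11 and −0.09 under EGFP and −0.02, −0.14 and −0.17 under RXRa.

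Sex made no difference that passed the test in any of the 10 genes. Of all genes 4.77% were called between female and male sorted libraries. The 10 genes had log2 differences of −0.11 (Vip) to 0.20 (Slc18a3). At an unadjusted p under 0.05 there were 0 of them, against 3178 of the 43902 genes tested, and DESeq2 called 0 of the 10. The vector effect did not pass the test for a difference between populations, or between sexes within D1 or D2, in any of the 10 genes. For these 3 comparisons 0% of all genes were called, and 0 of the 10 had an unadjusted p under 0.05. Of the 43902 genes tested 3609, 912 and 1324 had one.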

How the data were processed

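The authors deposited raw counts per gene, whole numbers with no normalization, in 1 table for the bulk libraries and 1 for the sorted libraries. Per the labels' protocols, bulk RNA was poly(A)-selected, and RNA of sorted nuclei was depleted of ribosomal RNA and prepared with a stranded low-input kit. The submitters' processing notes name FastQC, Trimmomatic, HISAT2, Picard, featureCounts and Subread and the build GRCm38. Not given in the sources used here are the release of the annotation, the strand setting and whether intron reads were counted. Poly(A) RNA holds mainly spliced transcripts and nuclear total RNA also holds unspliced ones, so a level in bulk was not tested against one in nuclei. From the counts, CPM (counts per 1000000 of the TMM-scaled library size) and tests were computed with edgeR 4.0.16 in R 4.3.3: the quasi-likelihood test, filterByExpr by group, Benjamini-Hochberg adjustment over all genes tested, called under 0.05. Bulk was fitted with its 2 groups, and 35 sorted libraries were fitted as 8 groups with the sexes weighted equally. In all 9 contrasts were tested. DESeq2 1.42.0, other scaling, other filters, a replicate block, the silent-gene density as a covariate and the loss of each library were alternatives. The sorted library whose title and vector label disagree entered no comparison. Pairs of replicates differed by 1.80 to 63.6 in chi-square per degree of freedom, so no pair was counted as 1 sample. Symbols and positions come from GENCODE M21, which holds 55394 of the 55487 identifiers, and promoter sequences from RefSeq on GRCm38.p6. The tests were checked on simulated data with known fold changes. The simulated libraries held no shift shared by many genes of a library, so the check does not cover such shifts. The 10 genes, the marker lists (cholinergic, GABAergic, catecholamine, shared projection neuron and glutamatergic) and the rule for other genes were chosen with earlier results of these data known. A gene first on the glutamatergic list is not reported here, and sums over that list leave it out. That rule names called list genes, at most 4 a list and contrast by smallest p, and for each of the 10 genes the 2 genes of highest Spearman correlation of log2(CPM + 1) in each table. The sorting check genes Drd1, Drd2, Adora2a and Tac1 are part of it. List genes named beyond it (markers given as examples, those outside the silent range and those at low counts) were chosen after their values were seen.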

Additional observations from a re-analysis of the deposited data

Results flagged for a closer look

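In 7 of 100 combinations of gene and group a single library lay far from the rest of its group, a distance that chance gives in about 1 group of 20. In bulk tissue 3 of the 7 were the same library, GFP library 3, which was the highest of 4 for Pvalb (15.54 CPM), Sst (223.8 CPM) and Vip (8.698 CPM). It also had the highest summed level of the 5 glutamatergic neuron markers, 721.6 CPM. In the sorted nuclei D1 female EGFP library 2 was the highest of 5 for Sst (14.96 CPM) and for Npy (8.523 CPM). D2 male EGFP library 4 was the highest of 5 for Sst (7.047 CPM). D1 male RXRa library 5 was the lowest of 4 for Slc18a3 (0.3434 CPM), a gene with at most 18 counts in any sorted library. No explanation of these values was tested.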

How the results depend on the processing

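Over 60 log2 differences of the 10 genes, 1564 values were recomputed under alternatives: 1453 kept their sign and their side of the threshold, 12 passed it and 99 changed sign, 79 of these with 1 library left out. The largest difference that changed sign was 0.30 (Sst, D2 minus D1 under RXRa). Labels give the groups the same replicate numbers, but same-numbered libraries did not consistently deviate together (correlations −0.75 to 0.64, in no comparison all above 0.1). With so few pairs in a comparison this cannot exclude that the numbers pair the samples, and the reported fits use no pairing. With a replicate block 0 of the 10 genes were called in any vector or population comparison, and genes called over the whole table went from 687 to 0 in bulk, from 9683 to 1 for RXRa in D2, from 53 to 30 for D2 minus D1 under EGFP and from 3671 to 73 under RXRa. Under that block Vip in bulk was at 0.12, Pvalb in D1 at 0.021, Npy in D1 at −0.013, Lhx6 in D2 at 0.033, Nos1 in D2 at 0.018 and Vip in D2 minus D1 under RXRa at −0.030, each of the other sign. DESeq2 called 1565 genes in bulk, 91 and 5701 for D2 minus D1 under EGFP and RXRa, and 2 for the sex difference of the vector effect in D1. It called 1 of the 10 genes under RXRa (Slc5a7), as RLE size factors did (1) and the silent-gene density as a covariate did (1). That covariate left 0 genes called for RXRa in D2. It turned the sign of Slc5a7 (0.035 in D1, 0.11 in D2, 0.019 between the sexes), Slc18a3 (−0.084) and Vip (0.19) in D2. Library totals gave 1114 genes for D2 minus D1 under RXRa and 1 of the 10 for RXRa in D2 (Chat). They turned the sign of Slc5a7 in bulk (0.025), Npy in D1 (−0.056), Slc18a3 in D2 (−0.15) and Vip in D2 minus D1 under RXRa (−0.041). Fits of only the groups compared called 2547 genes for RXRa in D2, 134 and 34 for D2 minus D1 under EGFP and RXRa. For the sex difference no filter gave 3337 genes and a mean of at least 1 CPM gave 1053, from 2095. Pvalb in D1 turned to 0.0125 with DESeq2, to 0.0133 with RLE size factors, to 0.0132 with the 1 CPM filter, to 0.0026 with no filter and to 0.0014 with only its groups. The cause was not tested.

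With 1 library left out, genes called ranged from 9 to 1016 in bulk, 0 to 14766 for RXRa in D2, 118 to 9886 for D2 minus D1 under RXRa and 0 to 3 for the sex difference of the vector effect in D1. Of the 10 genes, 0 to 1 were called in bulk, 0 to 1 for RXRa in D2 and 0 to 4 for D2 minus D1 under RXRa. The signs that changed had these ranges. In bulk they were −0.077 to 0.081 for Chat, −0.11 to 0.066 for Slc5a7, −0.067 to 0.091 for Slc18a3, −0.27 to 0.057 for Sst, −0.21 to 0.027 for Npy and −0.37 to 0.70 for Vip. For RXRa in D1 they were −0.024 to 0.18 for Slc18a3, −0.029 to 0.034 for Pvalb, −0.28 to 0.15 for Sst, −0.042 to 0.098 for Npy and −0.085 to 0.0017 for Th. For RXRa in D2 they were −0.087 to 0.19 for Slc18a3 and −0.10 to 0 for Th. For D2 minus D1 they were −0.072 to 0.0066 for Chat and −0.043 to 0.097 for Npy under EGFP, and −0.0013 to 0.45 for Sst and −0.10 to 0.10 for Vip under RXRa. Between the sexes they were −0.27 to 0.0065 for Sst, −0.029 to 0.050 for Npy, −0.013 to 0.047 for Nos1 and −0.041 to 0.022 for Th. Slc18a3 in sorted nuclei did not reach a mean of 1 CPM and has no value under that filter. For bulk, for the sexes and for the difference of the vector effect between populations, the reported fit already holds only the groups compared. Depth limits Slc18a3 most, with 3 to 18 sorted counts.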

Other observations

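A single sorted library is left without a group, since its labels disagree on the vector. It had 15630501 counts and a silent-gene density of 0.505 CPM per kb. On its library total Sst was at 5.37 CPM, Npy at 4.48, Chat at 40.8, Slc5a7 at 14.5, Nos1 at 117, Th at 23.3, Pvalb at 8.64, Lhx6 at 13.2 and Vip at 4.73 CPM. Slc18a3 had 5 counts. Per kb of gene body Sst stood at 7.68 times and Npy at 1.31 times the silent-gene density of that library.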
